A study of Mus musculus with 20 samples.

Results

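The regions described here are broad single-strand promoters: wide stretches of open chromatin at the start of protein-coding genes that lie on the same strand. They were chosen by width, distance and strand from a list of 102373 merged ATAC-seq peaks. A peak was taken when at most 1000 bp separated it from the transcription start site (TSS) of a protein-coding transcript, when all such TSS lay on the same strand, and when it was 1000 to 5000 bp wide. This gave 7719 peaks, or 7.54% of the list. The list held 17998 peaks at any protein-coding TSS, and the remaining promoter peaks were 8945 narrow single-strand peaks below 1000 bp, 1333 divergent peaks with protein-coding TSS on both strands, and 1 single-strand peak above the upper limit.

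ATAC-seq, in which a transposase cuts and tags accessible DNA, was performed in ZHBTc4 mouse embryonic stem (ES) cells grown in serum with LIF and inhibitors of GSK3 and MEK. In this line a Tet-Off promoter drives Pou5f1, which encodes OCT4, so that doxycycline (dox) removes the OCT4 made by the line itself. Every group carried, from lentiviral vectors with the PGK promoter, the cell cycle reporter YPet-MD and either SNAP-MD-OCT4, an OCT4 fused to a degron that is active at the end of mitosis, or SNAP-MD*-OCT4, in which that degron is mutated. The 20 libraries formed 10 groups of 2 replicates: both constructs after 40 h in 1 ug/ml dox, sorted by Hoechst33342 and YPet-MD into 4 phases, namely EG1 (early G1), LG1 (late G1), S, or SG2 (from late S on), and both constructs without dox. The cells without dox were not sorted. By the study's methods the replicates were biological duplicates, and the transgenes gave less OCT4 than wildtype cells hold. The peaks analysed here were merged over the 16 dox-treated libraries and hold no value for any single library. A promoter open in 1 library therefore counts like a promoter open in all of them, depth is unknown, and neither the constructs nor the phases could be compared.

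A promoter is the DNA around a TSS on which transcription factors and RNA polymerase II assemble, and it is kept largely free of nucleosomes at active genes. Most mammalian promoters lie in CpG islands, stretches rich in G and C in which the dinucleotide CpG is not depleted and which usually stay unmethylated. Promoters outside islands more often belong to tissue-specific genes, and some of them hold a TATA box shortly before the TSS. OCT4, a pioneer factor of pluripotent cells, acts mainly at distal enhancers.

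To show what these promoters look like, the 200 bases before the TSS are given for members of several gene groups, 5′ to 3′ on the strand of the gene. Capitals mark CpG dinucleotides. The sequences come from the GRCm38 assembly as held by RefSeq, TSS were those of GENCODE M21 on the same build, and no base shown lies in an annotated exon. The first 6 were picked for their width: they belong to the widest broad promoter of a gene group, or to the widest with no annotated exon before its TSS. They are Sox2, a pluripotency factor (chr3:34650205-34650404, plus strand), Neurog1, a factor of neuronal fate (chr13:56252164-56252363, minus strand), Aebp2, a partner of Polycomb repressive complex PRC2 (chr6:140623299-140623498, plus strand), Cdkn2a, which encodes cell cycle inhibitors (chr4:89294654-89294853, minus strand), Rpl41, a ribosomal protein (chr10:128547775-128547974, minus strand), and Hoxa4, a body axis regulator (chr6:52191754-52191953, minus strand). Pou5f1 (chr17:35505818-35506017, plus strand) was added after its values were seen, because OCT4 is the factor manipulated in the study. Cyp1a1, an enzyme of xenobiotic metabolism (chr9:57697413-57697612, plus strand), had the lowest CpG ratio among the broad promoters with a TATA box.
Sox2: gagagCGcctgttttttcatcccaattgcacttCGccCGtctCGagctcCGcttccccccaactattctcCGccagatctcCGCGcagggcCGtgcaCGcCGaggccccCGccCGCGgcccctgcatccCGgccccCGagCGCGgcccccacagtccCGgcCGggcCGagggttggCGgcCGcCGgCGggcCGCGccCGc
Neurog1: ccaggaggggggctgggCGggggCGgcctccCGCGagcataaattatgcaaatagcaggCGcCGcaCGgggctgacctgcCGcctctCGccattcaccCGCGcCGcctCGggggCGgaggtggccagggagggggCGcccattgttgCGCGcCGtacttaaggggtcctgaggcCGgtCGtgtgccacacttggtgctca
Aebp2: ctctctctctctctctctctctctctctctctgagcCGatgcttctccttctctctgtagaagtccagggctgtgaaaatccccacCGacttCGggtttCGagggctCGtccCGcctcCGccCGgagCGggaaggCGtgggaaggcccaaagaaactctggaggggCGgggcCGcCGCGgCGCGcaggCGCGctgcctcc
Cdkn2a: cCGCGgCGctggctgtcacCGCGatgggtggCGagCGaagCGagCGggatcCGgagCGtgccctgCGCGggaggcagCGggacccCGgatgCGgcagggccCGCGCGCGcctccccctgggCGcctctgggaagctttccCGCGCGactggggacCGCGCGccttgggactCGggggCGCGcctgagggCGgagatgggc
Rpl41: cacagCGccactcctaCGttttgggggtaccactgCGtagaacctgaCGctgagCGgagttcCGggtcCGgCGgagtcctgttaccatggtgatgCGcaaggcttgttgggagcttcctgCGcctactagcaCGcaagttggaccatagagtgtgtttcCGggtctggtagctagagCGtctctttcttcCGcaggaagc
Hoxa4: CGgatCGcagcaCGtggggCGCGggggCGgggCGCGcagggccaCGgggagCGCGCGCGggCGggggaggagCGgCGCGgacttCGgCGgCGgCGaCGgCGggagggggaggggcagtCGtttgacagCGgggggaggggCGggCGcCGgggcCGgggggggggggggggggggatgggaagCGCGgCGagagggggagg
Pou5f1: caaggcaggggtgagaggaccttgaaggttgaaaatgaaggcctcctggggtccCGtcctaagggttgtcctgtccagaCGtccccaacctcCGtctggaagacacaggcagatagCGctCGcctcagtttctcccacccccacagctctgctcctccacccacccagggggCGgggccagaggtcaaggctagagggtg
Cyp1a1: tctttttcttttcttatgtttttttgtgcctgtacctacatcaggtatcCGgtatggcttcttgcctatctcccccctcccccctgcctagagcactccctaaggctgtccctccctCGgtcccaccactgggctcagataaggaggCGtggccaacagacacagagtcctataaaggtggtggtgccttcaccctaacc

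The CpG content of these stretches varied widely. Hoxa4 held 32 CpG dinucleotides in 200 bases, Cdkn2a 31, Sox2 28, Neurog1 20, Aebp2 18 and Rpl41 14. Pou5f1 held 6 and Cyp1a1 3. Cyp1a1 carried the letters TATAAA at positions -30 to -25 relative to its TSS. The Pou5f1 stretch carried GGGGCGGG, the core of an SP1 site, at positions -32 to -25. Neurog1 carried the octamer ATGCAAAT, the core of an OCT site, at positions -155 to -148, and CCATTGT, a SOX core, at positions -62 to -56.

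The 7719 broad promoters covered 10.5 Mb. Widths were selected on and are given as a description: they ran from 1000 to 3943 bp, with a median of 1270 bp and quartiles of 1125 and 1490 bp. Around the lower limit the list held 16 single-strand promoter peaks of 998 bp, 14 of 999 bp, 21 of 1000 bp and 11 of 1001 bp. Dnajb2, a co-chaperone, Pkp1, a desmosome protein, and Tmem9 were among those just inside it at 1000 bp, and Capn10, a protease, Mga, a partner of MAX, and Ttc22 among those just outside at 999 bp. The single peak above the upper limit spanned 38218 bp (chr9:3000002-3038219), 96.3% of it repeat sequence, and held TSS of 9 predicted genes, Gm10717 among them. Of the bases of the broad promoters, 32.1% lay outside protein-coding transcripts, 36.3% in introns, 19.9% in untranslated exons and 11.6% in coding exons.

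The members belonged to 7546 of 21938 protein-coding genes, so 34.4% of genes had a broad single-strand promoter. Most of these genes, 7323, had 1 such peak, 208 had 2, 13 had 3 and 2 had 4. A further 2400 genes had a divergent peak and no broad one, 5204 only a narrow one, 9 only the peak above the upper limit, and 6779 no listed peak within 1000 bp of a TSS. The share of genes with a broad promoter ran from 26.0% on chromosome 7 to 44.2% on chromosome 12 among the autosomes. It was 22.2% on chromosome X, and no gene of chromosome Y had one.

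The 10 widest members belonged to genes of diverse roles. Gm21738, a predicted gene (chr14:19415722-19419664), led with 3943 bp, and 84.1% of its peak was soft-masked as repeat and no CpG island overlapped it. The next was Ptma, which encodes the nuclear protein prothymosin alpha (chr1:86524871-86528639), with 3769 bp in an island of 3994 bp. Tlk2, a kinase of chromatin assembly, followed with 3475 bp and 4 TSS clusters, and Ppp2r3d, a regulatory subunit of protein phosphatase 2A, with 3421 bp. Tril, an accessory protein of Toll-like receptors, had 3375 bp, and Nsd1, a methyltransferase of histone H3 lysine 36, had 3091 bp. The zinc finger factor gene Hivep2 had 3062 bp, the receptor kinase gene Erbb4 3041 bp, the atypical cadherin gene Fat4 3039 bp and the zinc finger homeobox gene Tshz3 3027 bp. These 10 peaks were placed differently around their TSS. Nsd1 reached 203 bp upstream and 2887 bp downstream, and Tril 419 and 2955 bp, whereas Tshz3 reached 2442 bp upstream and 584 bp downstream. Gm21738 was the only one of the 10 whose peak was at least 50% soft-masked, which was the case for 9 of all 7719 members (0.117%).

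The reference TSS of a peak was the TSS with the most protein-coding transcripts, and among equals the one nearest the centre of the peak. It lay inside the peak for 7395 broad promoters (95.8%, 95% Wilson interval 95.3 to 96.2), but for only 5498 of the 8945 narrow ones (61.5%, 60.5 to 62.5), so many peaks of the narrow class lie near a TSS without covering it. In the 7395 broad promoters, the peak reached a median of 560 bp upstream (interval 554 to 565) and 704 bp downstream (696 to 711). In the 5498 narrow ones, it reached 335 bp upstream (329 to 339) and 400 bp downstream (392 to 408). Width divided these classes, and a wider peak covers a nearby TSS more easily and reaches farther. These contrasts between broad and narrow are therefore tied to the rule and are given as a description. Intervals of medians are 95% intervals from binomial order statistics. All intervals given here take each peak as an independent draw, so they cover counting error alone, and a single merged list offers no replicate error. Over all 7719 members the downstream side was longer than the upstream side by a median of 145 bp (136 to 156; 244 bp, 194 to 278, with a lower width limit of 1500 bp), and it was the longer side in 66.3% (65.3 to 67.4). Narrow promoters were also longer downstream, by 67 bp (56 to 76). Divergent peaks of 1000 to 5000 bp had a difference of -9 bp (-21 to 5). They hold protein-coding TSS on both strands, so the downstream side of the reference TSS is the upstream side for the opposite strand. Near-symmetry can thus follow from the definition of this class, and no conclusion on the downstream excess is drawn from it. In the plot of peak extent around the TSS, 60.4% of the broad promoters covered the position 500 bp upstream and 84.1% the position 500 bp downstream.

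**Figure D1:**
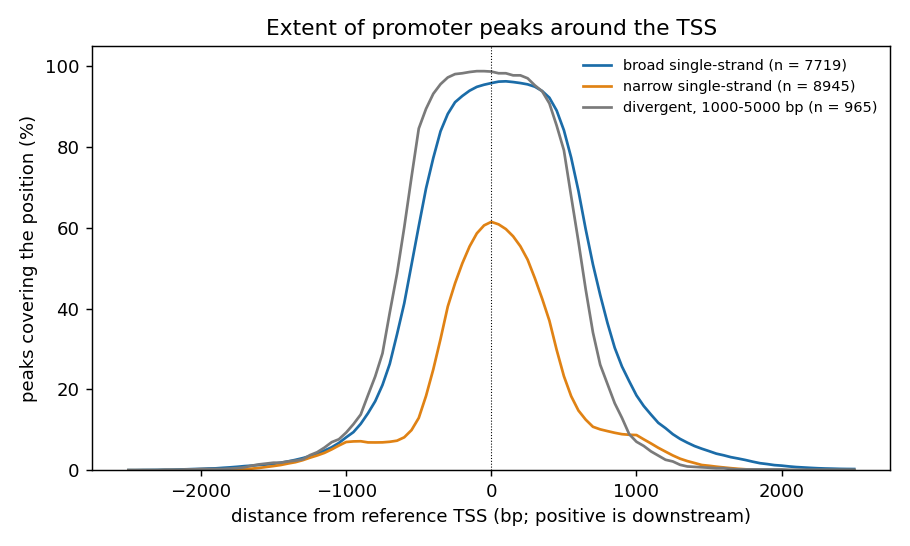
Share of peaks (y axis, percent) that covered each position relative to the reference TSS (x axis, bp, positive downstream) for 7719 broad single-strand, 8945 narrow single-strand and 965 divergent promoters of 1000 to 5000 bp. The line of the broad promoters falls off later downstream than upstream (18.5% still covered at 1000 bp downstream against 8.15% at 1000 bp upstream). The divergent line covers 84.6% at 500 bp upstream and 79.2% at 500 bp downstream.

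The broad promoters were rich in CpG. In a fixed window of 500 bp on each side of the TSS, which does not depend on the width of the peak, their median GC content was 62.7% (interval 62.5 to 62.8). The median CpG ratio, observed over expected from the base content, was 0.775 (0.771 to 0.779). Narrow promoters had medians of 55.4% (55.2 to 55.6) and 0.534 (0.526 to 0.541). The medians differed by 7.3 percentage points of GC and 0.241 of the ratio, with intervals of 6.9 to 7.6 points and 0.230 to 0.253. The divergent peaks of the same width range were at 61.9% (61.4 to 62.4) and 0.794 (0.785 to 0.805), and thus slightly lower in GC and higher in CpG ratio than the broad single-strand promoters. The medians over all protein-coding genes, 1 TSS each, were 54.9% and 0.557.

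Promoters were also sorted into 3 CpG classes. Between 500 bp upstream and 2000 bp downstream of the TSS, a high-CpG promoter held a window of 500 bp with a GC content of at least 55% and a CpG ratio of at least 0.6, and a low-CpG promoter held no window with a ratio of 0.4 or more. Of the broad promoters, 94.4% (93.8 to 94.9) were high-CpG, 4.65% were intermediate and 0.972%, or 75 promoters, were low. The high-CpG share was 60.8% of the narrow promoters, which was lower by 33.6 percentage points (95% Newcombe interval 32.5 to 34.7), and 57.8% of all protein-coding genes. Read the other way, 54.0% of the 12623 genes with a high-CpG promoter had a broad single-strand peak, against 12.3% of the 4079 intermediate and 4.31% of the 5151 low ones. A high CpG content was not particular to broad single-strand promoters: 97.1% (95.8 to 98.0) of the divergent peaks of the same width range were high-CpG.

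CpG islands, searched as merged windows of 200 bp with at least 50% GC and a ratio of at least 0.6, overlapped 94.6% of the broad promoters (94.0 to 95.1) and 54.3% of the narrow ones. The difference was 40.3 percentage points (39.1 to 41.4), and 26.5 points (25.2 to 27.8) when a TSS had to lie inside the peak. A wider peak can overlap an island more easily. The share with an island at the reference TSS itself, which reads the peak only in the choice of that TSS, was 90.1% against 54.6%. In divergent peaks of the same width range both shares were higher, with 99.0% overlapping an island and 95.4% with one at the reference TSS. In the 7300 members with an island, the island had a median length of 1128 bp (1117 to 1141) and took up a median of 84.6% of the peak. In the 6739 members with the TSS inside both, the peak ended a median of 9 bp beyond the island downstream, where the island reached 689 bp, and 108 bp beyond it upstream, where the island reached 419 bp. The extents of peak and island rose together across these members, with a Spearman correlation of 0.606 upstream and 0.514 downstream. These correlations are descriptions over regions of 1 list that share libraries and base composition. The plot of CpG density shows the same shape, with a mean of 10.3 CpG per 100 bp just after the TSS, 6.96 from 400 to 500 bp downstream and 3.78 from 400 to 500 bp upstream.

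**Figure D2:**
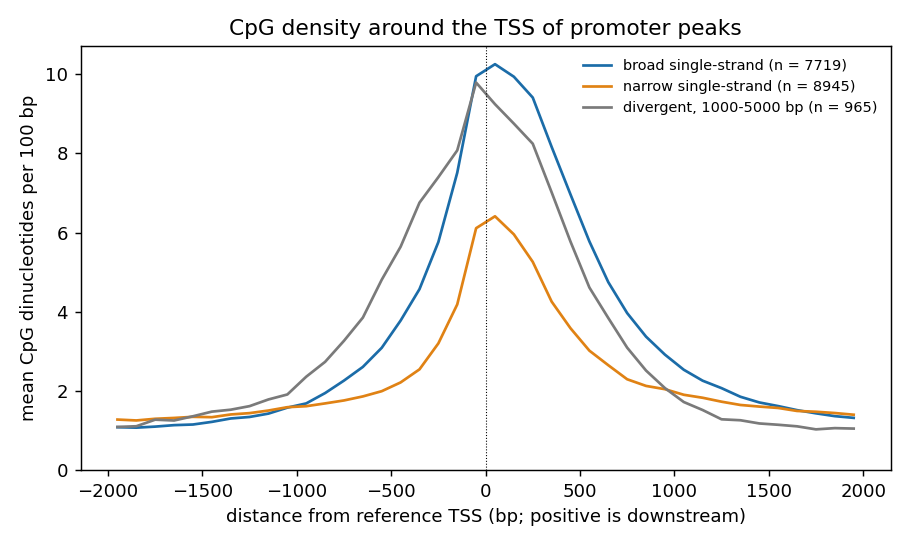
Mean number of CpG dinucleotides per 100 bp (y axis) in bins of 100 bp around the reference TSS (x axis, bp, positive downstream) for broad, narrow and divergent promoters, without error bars because it is a mean over all peaks of each class. In the first bin after the TSS the broad promoters reach 10.3, the divergent ones 9.24 and the narrow ones 6.41, and the broad line declines more slowly downstream than upstream.

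The width of a member went with its CpG content. The 3623 promoters of 1000 to 1249 bp had a median CpG ratio of 0.748 (0.742 to 0.754), and those of 1250 bp to below 1500 bp, 1500 to 1999 bp and at least 2000 bp had 0.796, 0.816 and 0.817, the last with an interval of 0.797 to 0.830. The first step was larger than the intervals, and the last was not. Median island length rose from 978 bp in the narrowest of these 4 classes to 1926 bp in the widest. Over the 7300 members with an island, width and island length had a Spearman correlation of 0.480, given as a description.

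The longest islands and the lowest CpG ratios marked the ends of this range. The 5 longest islands, of 3994 to 4747 bp, lay at Anp32a, an inhibitor of protein phosphatase 2A (4747 bp), Tlx3, a homeobox factor of sensory neurons (4502 bp), Efna5, an ephrin ligand (4197 bp), Foxo3, a forkhead factor of stress responses (4105 bp), and Ptma (3994 bp). The peak at Foxo3 was 1049 bp wide and that at Efna5 2922 bp, so the peak at Foxo3 was shorter than its island by more than that at Efna5. The 5 lowest CpG ratios were those of 4931408C20Rik (0), Elavl1, an RNA-binding protein (0.0213), Mx2, an interferon-induced GTPase (0.0617), Kng2, a kininogen (0.0719), and Klf1, a factor of red blood cells (0.0783). In 3 of these 5, Elavl1, Kng2 and Klf1, the reference TSS lay outside the peak, by 149, 977 and 743 bp.

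The few members outside the high-CpG class differed from the others in more than base content. The TSS lay inside the peak in 96.5% of the high-CpG members, 85.5% (81.5 to 88.8) of the 359 intermediate and 74.7% (63.8 to 83.1) of the 75 low-CpG members. A long non-coding RNA on the opposite strand started nearby in 13.9%, 6.41% and 4.00% of them. Their widths were closer, with medians of 1275, 1208 and 1168 bp.

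Clusters of protein-coding TSS were counted within 1000 bp of the reference TSS and on its strand, whether or not the peak covered them. With clusters more than 100 bp apart, 32.4% of the broad promoters (31.3 to 33.4) had 2 or more. The share was 22.1% for the narrow ones and 22.2% for all protein-coding genes. The difference between broad and narrow was 10.3 percentage points (8.92 to 11.6), and 5.83 points (4.58 to 7.07) when only basic transcripts of the annotation were used. In divergent peaks of the same width range the share was 41.1%, and broad promoters were lower by a difference of -8.77 points (-12.1 to -5.53). The share was higher in the members of 1500 to 1999 bp (38.4%, 36.0 to 40.9) than in those of 1000 to 1249 bp (28.1%, 26.6 to 29.6), and 33.7% (29.1 to 38.6) in those of at least 2000 bp. The first 5 members with the largest number found, 6 clusters, were Dnpep, an aspartyl aminopeptidase, Znrf1, a ubiquitin ligase, Eif5a, a translation factor, Lasp1, an actin-binding protein, and Rcbtb2.

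The rule left out peaks with protein-coding TSS on both strands, but not those with a non-coding TSS on the other strand. Of the broad promoters, 1035 (13.4%, 12.7 to 14.2) had the TSS of a long non-coding RNA on the opposite strand within 1000 bp, against 7.28% of the narrow promoters and 6.69% of all protein-coding genes. The difference between broad and narrow was 6.13 percentage points (5.20 to 7.07), and 9.29 points (7.58 to 11.1) with a lower width limit of 1500 bp. In 60.7% (57.7 to 63.6) of these 1035 members the nearest such TSS lay upstream of the gene, at a median distance of 182.5 bp (164 to 195). The 651 narrow promoters with one were similar, with 57.9% (54.1 to 61.6) upstream, at 155 bp (138 to 174). The share was 11.9% (10.9 to 13.0) in members of 1000 to 1249 bp and 18.9% (15.2 to 23.2) in those of at least 2000 bp.

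Short consensus motifs were searched from 250 bp before to 50 bp after the TSS, as exact letters on both strands. A match describes the letters in this window and is not a bound site, and a consensus misses divergent sites. GGGGCGGG, the core of sites for SP1 and related factors, was the most frequent of the 15 motifs, in 37.7% of broad promoters (36.6 to 38.8), 22.5% of narrow promoters and 21.2% of all protein-coding promoters. Broad exceeded narrow by 15.2 percentage points (13.8 to 16.6). Since CpG content also differed between both classes, the comparison was repeated among high-CpG promoters alone, an alternative chosen after seeing the data, and the SP1 difference was then 7.36 points (5.68 to 9.02).

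5 further motifs were more frequent in broad than in narrow promoters, over all and over high-CpG promoters. TCTCGCGA, bound by ZBTB33 (Kaiso), was found in 2.22% of broad, 0.537% of narrow and 1.36% of all promoters, a difference between broad and narrow of 1.68 points (1.33 to 2.06), and of 1.57 points (1.15 to 2.00) among high-CpG promoters. AAGATGGCG, the core of a YY1 site, was found in 3.20%, 1.44% and 1.78% of broad, narrow and all promoters. CGCATGCG, the core of an NRF1 site, was in 3.58%, 1.89% and 2.62%. TTCCCGCC, an E2F core of cell cycle genes, was in 4.86%, 2.92% and 2.93%. AGCCAATC, the CCAAT box bound by NF-Y, was in 4.97%, 3.94% and 4.63%. Among high-CpG promoters the differences of these 4 motifs ranged from 0.848 points for NF-Y to 1.23 points for YY1. With the reference TSS inside the peak in both classes, the NF-Y difference had an interval that held 0 (0.196 points, -0.571 to 0.948), and the other 4 and SP1 stayed above 0. Of the 7719 windows, 79 held SP1 and E2F matches that overlapped each other, and no other pair of motifs overlapped in more than 6.

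None of these 5 was more frequent in broad promoters than in the divergent peaks of the same width range beyond its interval. ZBTB33 was found in 4.15% of the divergent peaks, YY1 in 5.39% and NF-Y in 6.63%, with differences between broad and divergent of -1.93 (-3.41 to -0.787), -2.19 (-3.84 to -0.866) and -1.66 points (-3.47 to -0.164). For NRF1 and E2F the intervals held 0. ETS, in 11.7% of divergent peaks, and CRE, in 4.56%, were also less frequent in broad promoters, by differences of -5.52 (-7.76 to -3.56) and -1.33 points (-2.88 to -0.114). Among the 15 motifs only SP1 was more frequent in broad than in divergent promoters with an interval above 0. It was in 34.3% of the latter, a difference of 3.40 points (0.163 to 6.52). For 9 of the 15 motifs the interval held 0.

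4 motifs that were more frequent in broad than in narrow promoters overall did not differ among high-CpG promoters beyond their intervals. The ETS core CCGGAAGT was in 6.19% of broad, 4.57% of narrow and 4.87% of all promoters, with differences of 1.62 points (0.934 to 2.32) overall and -0.176 points (-1.05 to 0.680) among high-CpG promoters. The E-box CACGTG, bound by MYC and USF proteins, was in 10.4%, 8.33% and 7.71%, with differences of 2.07 points (1.19 to 2.97) and -0.0599 points (-1.14 to 1.01). The cAMP response element TGACGTCA was in 3.23%, 2.24% and 2.43%, and AGGGGGCGC, a part of the CTCF site, in 2.80%, 1.99% and 1.52%.

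Motifs of pluripotency factors were not more frequent in broad than in narrow promoters beyond the intervals. The OCT octamer ATGCAAAT occurred in 108 of them (1.40%, 1.16 to 1.69), in 1.38% of narrow and in 1.58% of all promoters, and broad and narrow promoters differed by 0.0241 points (-0.331 to 0.387). The SOX core CCATTGT occurred in 1.84% of broad, 2.46% of narrow and 2.94% of all promoters, a difference of -0.620 points between broad and narrow (-1.06 to -0.177). Among high-CpG promoters that difference was -0.00491 points (-0.485 to 0.457). TCAAGGTCA, bound by ESRRB, occurred in 22 broad promoters (0.285%), 0.347% of narrow and 0.485% of all promoters. CCACACCC, bound by KLF factors, occurred in 3.69%, 4.39% and 4.04%, with a difference of -0.701 points (-1.30 to -0.0999) that was -0.221 points (-0.896 to 0.434) among high-CpG promoters. It was found in 8 (10.7%, 5.50 to 19.7) of the 75 low-CpG members and in 3.57% (3.17 to 4.02) of the high-CpG members. The low-CpG share rests on few promoters, and low-CpG narrow promoters were not compared.

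A TATA box, searched as TATAAA from 40 to 20 bases before the TSS on the sense strand, was found in 75 broad promoters (0.972%, 0.776 to 1.22). It was found in 1.22% of narrow and 2.30% of all protein-coding promoters. The difference of -0.247 points between broad and narrow had an interval that held 0 (-0.564 to 0.0737). Its sign and its call depended on the limits used: with a lower width limit of 800 bp the difference was -0.542 points (-0.910 to -0.207), and with the TSS required inside the peak it was 0.00800 points (-0.330 to 0.329).

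**Figure D3:**
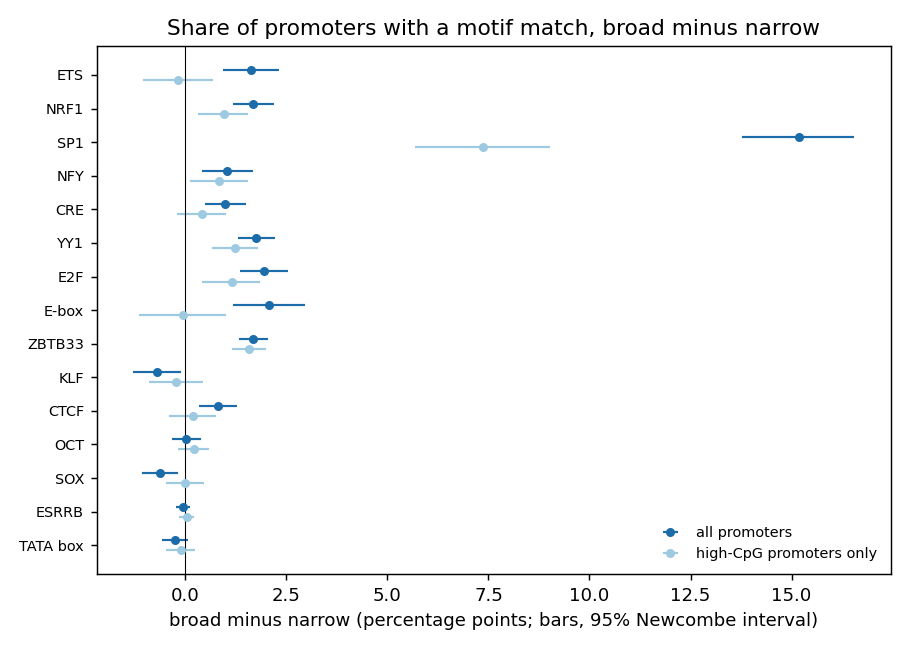
Difference between the share of broad and of narrow promoters with a match (x axis, percentage points) for 15 motifs (y axis), over all promoters (dark) and over high-CpG promoters only (light), with 95% Newcombe intervals as bars. The SP1 motif stands apart at 15.2 and 7.36 points, and 6 of the 15 intervals lie above 0 in the high-CpG comparison against 10 over all promoters.

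Matches took different places relative to the TSS of the broad promoters. Of the 256 YY1 matches in the window, 58.6% were centred in the first 50 bp after the TSS. Of 532 ETS matches 38.0%, and of 270 ZBTB33 matches 36.3%, were in the last 50 bp before the TSS. The CCAAT box peaked farther upstream, with 37.2% of 411 matches from 100 to 50 bp before the TSS. The 118 OCT matches were spread out, with no bin of 50 bp above 24.6% and only 5 matches after the TSS.

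Gene groups were then described by the class of promoter peak that their genes had, beside the 34.4% of all protein-coding genes with a broad promoter. Most lists held a larger share of high-CpG promoters than all genes, and 54.0% of all high-CpG genes were broad. Among high-CpG genes alone, broad ones were 9 of 11 in the pluripotency list and 15 of 19 in the lineage list. They were 12 of 15 in the BAF, 16 of 21 in the Polycomb and 14 of 23 in the cell cycle list. A gene with several peaks was counted as broad when any of them was. The lists were written with earlier results of these data known, so their counts describe the lists and are no independent evidence.

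Of 16 transcription factor genes of the pluripotency network, 11 (68.8%, 44.4 to 85.8) had a broad promoter, 4 a narrow one and 1 none. Sox2, which together with OCT4 maintains ES cells, had the widest (1849 bp, chr3:34649227-34651075), reaching 1178 bp upstream and 670 bp downstream of its TSS. Pou5f1 itself followed with 1571 bp (chr17:35505733-35507303), 285 bp upstream and 1285 bp downstream. Its CpG ratio of 0.332 was the lowest of the 11, it had no CpG island, and it was of the intermediate class. The transgenes also hold OCT4 coding sequence, and their reads cannot be told apart here from reads of Pou5f1 exons. The other members were Gbx2, a homeobox gene (1552 bp), Nr5a2, an orphan nuclear receptor (1487 bp), Tbx3, a T-box factor (1443 bp), Esrrb, a nuclear receptor that sustains self-renewal (1403 bp), Klf4 (1289 bp), Stat3, the effector of LIF (1273 bp), Tfcp2l1 (1145 bp), Klf5 (1134 bp) and Klf2 (1049 bp). The narrow promoters included those of Prdm14, a repressor of epiblast genes (806 bp), Sall4 (769 bp) and Zfp42, known as Rex1 (598 bp), whose peak did not cover its TSS. Nanog had no listed peak within 1000 bp of its TSS.

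Of 20 transcription factor genes of lineage specification, 15 (75.0%, 53.1 to 88.8) had a broad promoter and 5 a narrow one. The widest were at Pax6, a regulator of eye and forebrain (2107 bp, chr2:105674707-105676813), Sox17, of endoderm (2078 bp, chr1:4491735-4493812), and Gsc, of the organizer (2017 bp, chr12:104471413-104473429). In Sox17 and Gsc nearly all of the peak lay in the gene, with 77 and 99 bp upstream against 2000 and 1917 bp downstream. The remaining members were Neurog1 (1577 bp), Lhx1 (1521 bp), Cdx2, of trophectoderm and hindgut (1408 bp), Otx2 (1392 bp), Foxa2 (1390 bp), Gata6 (1367 bp), Eomes (1360 bp), Gata4, of endoderm and heart (1319 bp), Mixl1 (1213 bp), Tfap2a (1194 bp), Gata3 (1132 bp) and Sox1, of the neural plate (1115 bp). The octamer ATGCAAAT stood in the window of 3 of these 15, Cdx2, Pax6 and Neurog1, beside 1.40% of all broad promoters. It stood in 0 of the 11 broad promoters of the pluripotency list and 0 of 13 of the BAF list. In the Polycomb list it stood in 1 of 18 and in the cell cycle list in 0 of 15. These counts are small, and a difference between lists was not tested. Narrow promoters were found at Tfap2c (790 bp), Gata2 (781 bp), Hand1 (703 bp), Nkx2-5, of the heart (406 bp), and Tbx6, of paraxial mesoderm (205 bp). The reference TSS lay outside the peak, by 116 to 854 bp, for Nkx2-5, Hand1, Tbx6, Foxa2 and Tfap2a.

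**Figure D4:**
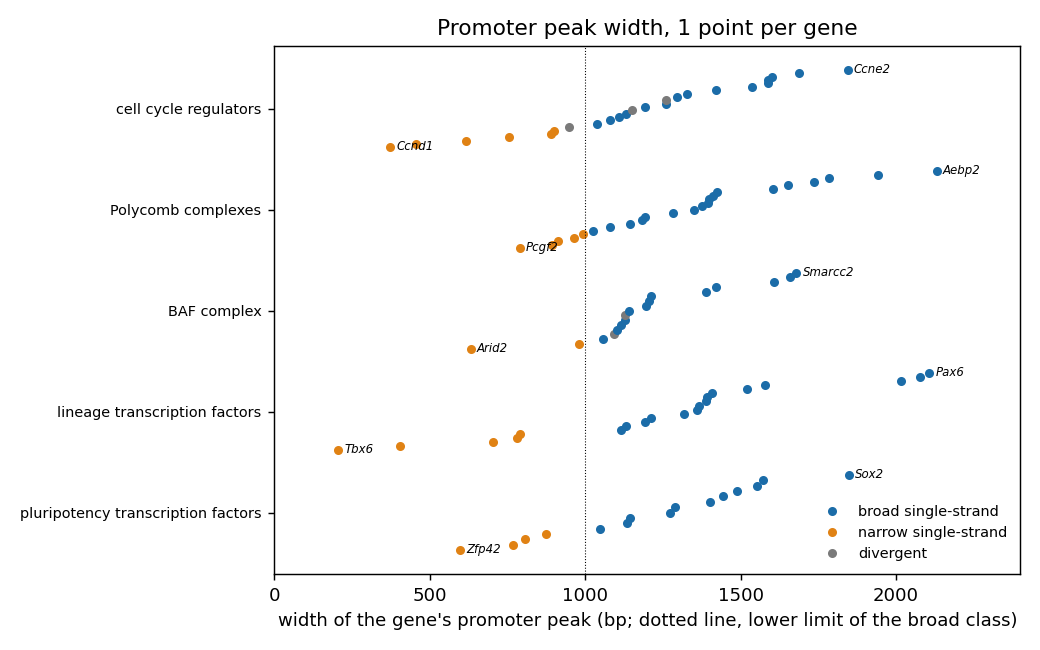
Width of the promoter peak (x axis, bp) of each gene with a listed peak in 5 gene lists (y axis), coloured by class, with the widest and the narrowest gene of each list named and the limit of 1000 bp dotted. Broad promoters reach 1849 bp in the pluripotency list (Sox2) and 2107 bp in the lineage list (Pax6), and the widths of both lists overlap over most of their range.

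The BAF complex is the chromatin remodeller through which OCT4 is known to open chromatin. Of 17 genes for its subunits 13 (76.5%, 52.7 to 90.4) had a broad promoter, 2 a divergent and 2 a narrow one. Smarca4, which encodes the ATPase BRG1, had 1211 bp (chr9:21615580-21616790), close to the median of 1207 bp of these 13. Smarcc2 (1679 bp), Smarcd3 (1660 bp) and Ss18 (1608 bp) were the widest, followed by Arid1b (1422 bp) and Smarce1 (1390 bp). The others lay between 1057 bp (Dpf2) and 1207 bp (Smarcb1), and comprised also Smarcc1, Smarcd2, Arid1a, Actl6a and Brd7. The promoters of Brd9 and Pbrm1 were divergent, and those of Smarcd1 (979 bp) and Arid2 (632 bp) narrow. The peaks of Arid1b and Arid2 did not cover the reference TSS.

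Of 23 genes of the Polycomb complexes, which repress developmental genes, 18 (78.3%, 58.1 to 90.3) had a broad promoter and 5 a narrow one. In PRC2, all 3 core subunit genes Ezh2 (1943 bp, chr6:47593930-47595872), Eed (1651 bp) and Suz12 (1411 bp) were broad, as were its partners Aebp2 (2130 bp), Phf19 (1784 bp) and Jarid2 (1375 bp), while Ezh1 (965 bp) and Mtf2 (913 bp) were narrow. In PRC1, the ubiquitin ligase gene Rnf2 (1351 bp) was broad and its paralog Ring1 (893 bp) narrow. All 5 measured Cbx genes were broad, from Cbx6 (1026 bp) to Cbx7 (1604 bp), as were Pcgf1, Pcgf5, Pcgf6, Bmi1, Kdm2b and Rybp, whereas Pcgf2 (790 bp) and Pcgf3 (993 bp) were narrow. Pcgf3, at 993 bp, and Cbx6, at 1026 bp, lay so close to the limit that their class rests on a few bases.

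Of 24 cell cycle regulators, 15 (62.5%, 42.7 to 78.8) had a broad promoter, 3 a divergent and 6 a narrow one. Cyclin genes fell into both classes. Ccne2 (1844 bp, chr4:11190304-11192147) and Ccne1 (1587 bp), the E cyclins of S phase entry, and Ccna2 (1194 bp) were broad, as was Ccnb1 (1080 bp), whereas Ccnb2 (900 bp) and the D cyclins Ccnd3 (755 bp), Ccnd2 (457 bp) and Ccnd1 (374 bp) were narrow. The peak of Ccnd2 did not cover its TSS. The inhibitor genes Cdkn1a, which encodes p21 (1688 bp), Cdkn2a (1589 bp) and Cdkn1b (1327 bp) were broad, as were Cdk4 (1600 bp), E2f1 (1536 bp), Rb1 (1422 bp), Plk1 (1296 bp), Cdc20 (1260 bp), Cdc25a (1130 bp), Cdk6 (1110 bp) and Cdk1 (1037 bp). The promoters of Cdk2, Cdc25b and Aurka were divergent, and those of Fzr1 (891 bp) and Aurkb (618 bp) narrow.

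Lists of larger families spanned nearly the whole range of shares, as the plot of promoter classes shows. Of 19 Sox genes 18 (94.7%, 75.4 to 99.1) had a broad promoter, the widest at Sox11, a factor of neuronal precursors (2470 bp), and Sox5 had a narrow one (730 bp). Forkhead genes had one in 28 of 44 (63.6%, 48.9 to 76.2), with a median width of 1940 bp and the widest at Foxp1 (2792 bp). Wnt ligands had one in 11 of 19 (57.9%, 36.3 to 76.9), with Wnt9a the widest (1841 bp). Fgf ligands had one in 10 of 22 (45.5%, 26.9 to 65.3), with Fgf12 the widest (2227 bp). Of 39 Hox genes 17 (43.6%, 29.3 to 59.0) were broad, led by Hoxa4 (2014 bp), and 21 were narrow. The intervals of the Fgf and Hox lists held the 34.4% of all genes. Counted among high-CpG genes alone, broad ones were 17 of 17 in the Sox and 26 of 35 in the forkhead list. They were 11 of 17 in the Wnt, 7 of 14 in the Fgf and 16 of 35 in the Hox list.

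Among housekeeping groups, 89.3% to 100% of whose promoters were of the high-CpG class, cytosolic ribosomal proteins had the largest share of broad promoters. Genes of cytosolic ribosomal proteins were broad in 50 of 76 (65.8%, 54.6 to 75.5), with Rpl10 the widest (2804 bp, chrX:74269900-74272703). Those of mitochondrial ribosomal proteins were broad in 21 of 78 (26.9%, 18.3 to 37.7), with Mrpl1 the widest (1495 bp), and divergent in 34. The high-CpG shares of both lists were 96.1% and 97.4%. Genes of respiratory complex I were broad in 11 of 36 (30.6%) and divergent in 18, with Ndufv2 the widest broad one (1514 bp). The proteasome had 15 of 39 (38.5%, 24.9 to 54.1), led by Psmd11 with 1268 bp. Mediator had 14 of 28 (50.0%, 32.6 to 67.4), led by Med21 with 1490 bp. TFIID and the general initiation factors had 9 of 26 (34.6%, 19.4 to 53.8), led by Taf3 with 1591 bp. Except for the cytosolic ribosomal list, the intervals of these lists overlapped each other and held the 34.4% of all genes. Over all high-CpG genes, however, 54.0% were broad. Counted among high-CpG genes alone, broad ones were 49 of 73 in the cytosolic and 20 of 76 in the mitochondrial ribosomal list. They were 11 of 36 in the complex I, 14 of 36 in the proteasome, 13 of 25 in the Mediator and 9 of 25 in the TFIID list.

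Zinc finger genes named Zfp were broad in 160 of 365 (43.8%, 38.8 to 49.0), with Zfp827 the widest (2131 bp), and solute carriers in 122 of 334 (36.5%, 31.5 to 41.8), with Slc25a39 the widest (2348 bp). Counted among high-CpG genes alone, broad ones were 126 of 243 Zfp genes and 113 of 215 solute carriers, beside 54.0% over all genes. Families used in specialised tissues mostly had no listed promoter peak. Of 49 keratin genes 1, Krt10 (1288 bp), had a broad promoter and 38 had no listed promoter peak. Of 1093 olfactory receptor genes 2 (0.183%) had one, the wider at Olfr52 (1150 bp), and 1060 had no peak, and none of 327 vomeronasal receptor genes was broad (0%, up to 1.16%).

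**Figure D5:**
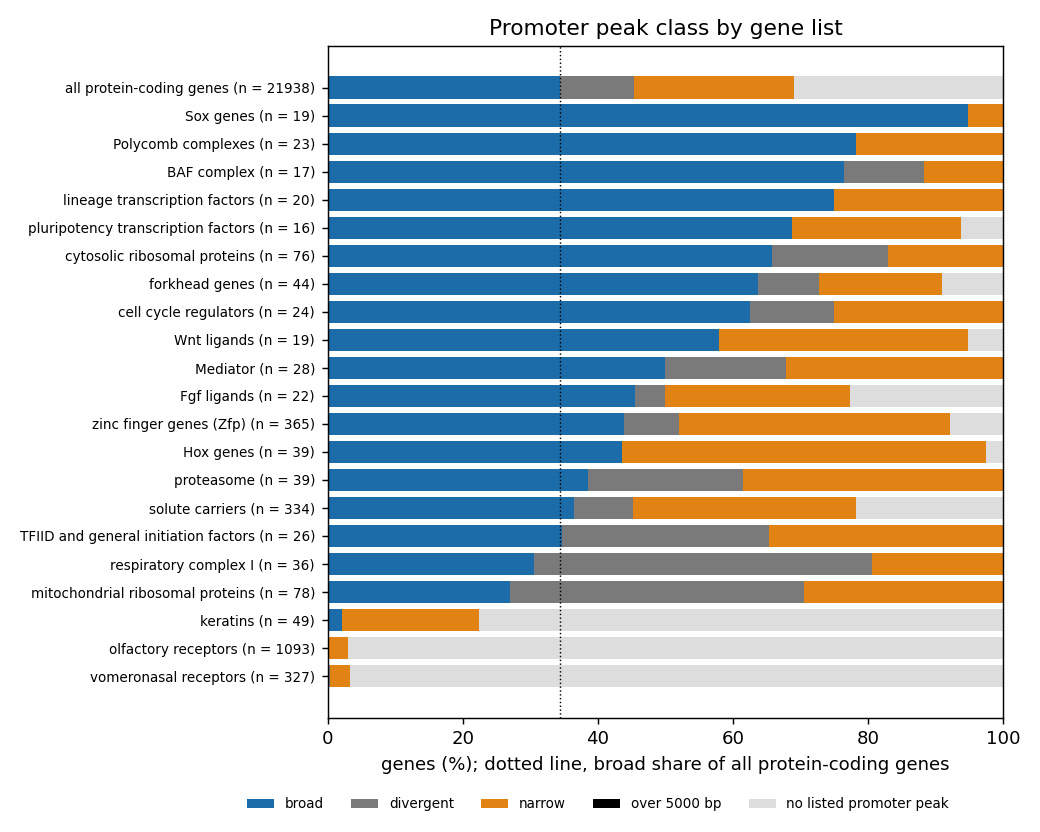
Share of genes (x axis, percent) whose promoter peak was broad, divergent, narrow, above 5000 bp or not listed, for all 21938 protein-coding genes and for 21 gene lists (y axis, number of genes in brackets), with the broad share of all genes as a dotted line at 34.4%. Sox genes (94.7%) stand at the upper end and vomeronasal receptors (0%) at the lower, and divergent promoters make up most of the rest for mitochondrial ribosomal proteins and respiratory complex I.

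Broad promoters stood farther from the next listed peak than narrow ones, but width divided these classes. Neighbouring stretches that merge can form a broad peak and lose a near neighbour, whereas stretches left apart stay narrow and close together. This contrast is therefore tied to the rule and is given as a description. Gaps were not recomputed with nearby peaks joined. The gap to the next peak was a median of 9817 bp upstream (9500 to 10165) and 10054 bp downstream (9772 to 10332), against 5753.5 and 6445.5 bp for narrow promoters. Another peak lay at most 1000 bp away for 15.5% of the broad (14.7 to 16.3) and 37.5% of the narrow promoters, a difference of -22.1 points (-23.4 to -20.8). Of the narrow peaks, 746 (8.34%) shared a TSS with a broad member and thus lay beside it. Without them the narrow medians were 6142.5 and 6837 bp, and the difference was -16.6 points (-17.9 to -15.3). The classes also differed in how often the peak covered its TSS, and gaps were not compared with the TSS inside the peak in both. Among the 324 broad members with the TSS outside, 46.9% (41.5 to 52.4) had another peak at most 1000 bp away. Divergent peaks of the same width range had median gaps of 10524 and 10118 bp. In these, 10.1% had a peak at most 1000 bp away, 5.42 points less than in broad single-strand promoters (3.21 to 7.34). The differences in CpG content, islands, TSS clusters, non-coding TSS and the TATA box were also computed without the 746 narrow peaks.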

How the data were processed

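ATAC-seq libraries were made from ZHBTc4 mouse ES cells. The file used here was deposited by the authors as coordinates of merged peaks (chromosome, start and end on mm10) with no count, signal or score, so replicates, constructs and phases could not be compared and the planned limma comparison was not run. The submitters' processing notes name STAR 2.6.1c, Picard, SAMtools, MACS2 2.1.1.20160309, bedtools, deepTools 3.1.3 and limma. The study's methods describe removal of peaks over 5000 bp and of input-overlapping and blacklisted peaks. The list held 7 peaks over 5000 bp, and whether the other removals were applied could not be tested. Merging over libraries can widen peaks.

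Members were found with Python 3.11.15 and numpy 2.4.6 from GENCODE M21 transcripts as described in the report. Base content, CpG classes, islands and motifs were computed from the GRCm38 sequence held by RefSeq. Shares were given 95% Wilson intervals, differences of shares 95% Newcombe intervals, and medians 95% order-statistic intervals (scipy 1.17.1). Scripts were tested on simulated data. Figures were drawn with matplotlib 3.10.9. A gene with several peaks took the first class that applied in the order broad, divergent, narrow, above 5000 bp and none. The members and gene lists were chosen with earlier results of these data known. Named genes were the 10 widest members, 3 on each side of the lower limit, the peak above the upper limit, the 5 with most TSS clusters, the longest islands and the lowest CpG ratios, and the members of 5 lists with the widest of the other lists. Genes on the sparse sides of these lists and Pou5f1 among the sequences were named after their values were seen. Where an annotated exon preceded the TSS, the sequence of the next widest list member was shown. A narrow promoter that the rule also named is not reported here.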

Additional observations from a re-analysis of the deposited data

How the results depend on the processing

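Of 68 alternatives to the 8 comparisons with a direction, 65 kept the direction and the side of 0. They changed the width limit, TSS distance, transcripts, reference TSS, peak list, repeats, and CpG and island definitions. An alternative without narrow peaks that shared a TSS with a broad member was chosen after seeing the data. The size moved by over 1.5 times for islands (40.3 to 26.5 points with a TSS inside the peak), TSS clusters (10.3 to 5.83 with basic transcripts), non-coding TSS (6.13 to 9.29) and extent (145 to 244 bp), the last 2 at a lower limit of 1500 bp. The number of broad promoters was 1877 at that limit and within 1.5 times of 7719 in the 5 other alternatives. The exception in direction or side of 0 was the TATA box. Its difference between broad and narrow promoters of -0.247 points was -0.542 (-0.910 to -0.207) at 800 bp, 0.113 (-0.382 to 0.774) at 1500 bp and 0.00800 (-0.330 to 0.329) with the TSS inside the peak, and the cause was not tested. In a window from 500 bp before to 100 bp after the TSS, 12 of 14 motif differences were kept. That of the OCT octamer turned to -0.115 points and the interval of the KLF motif then held 0 (-0.666, -1.44 to 0.116). Among high-CpG promoters, also chosen after seeing the data, 8 of 15 were kept. ETS turned to -0.176, the E-box to -0.0599 and ESRRB to 0.0353 points, and CRE (0.410), KLF (-0.221), CTCF (0.191) and SOX (-0.00491) had intervals that held 0. With the reference TSS inside the peak, added after seeing the data, 10 of 15 were kept, the TATA box turned to 0.0195 points, and ETS (0.139), NF-Y (0.196), CTCF (0.293) and SOX (-0.353) had intervals that held 0. No paired analysis was possible because the merged list holds no value per library. For the same reason limma was not run on MD-OCT4 against MD*-OCT4, no replicate could be left out, and depth is unknown.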
